A study of Mus musculus with 18 samples.

Results

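The microglia genes described here are 33 genes that mark microglia or are central to their work, chosen by symbol from a list of receptors, transcription factors, complement genes, phagocytic genes and general myeloid genes. Of these, 32 had a target (probeset) of their own on the array, 1 per gene, out of 19938 genes with such a target among 35557 targets in all. C3, the central complement protein, was not analysed here. The rule used symbols and no measured difference. RNA from the lateral septum (LS), a forebrain region that takes part in maternal behavior, was measured in 18 outbred hsd:ICR female mice, each on an Affymetrix Mouse Gene 1.0 ST array of its own. The 6 virgin mice were housed with other females while the rest were mated, and only diestrous virgins entered the analysis. The 6 lactating maternal mice were housed with a breeder male, raised a litter standardized to 11 pups and were dissected on postpartum Day 7. The 6 pups removed mice had the same mating and litter, lost their pups on postpartum Day 2, were diestrous and were dissected on Day 7 as well. All mice were housed singly after mating and were about 70 days old at dissection. Comparing pups removed with lactating mice addresses the presence of the litter after birth, which this design does not separate from lactation. Estrous state was determined in virgin and pups removed mice and is not given for lactating mice, so its part cannot be separated either.

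Microglia are the resident macrophages of the brain. In the healthy adult they are kept alive through the receptor Csf1r, survey the tissue with mobile processes steered by the ADP receptor P2ry12, and take in dying cells, debris and synapses with the help of complement and of receptors such as Trem2 and Mertk. When microglia react to injury or inflammation, P2ry12, Tmem119 and Cx3cr1 are typically lowered and lysosomal and phagocytic genes raised, so the homeostatic, complement and phagocytic genes are described apart. Tissue RNA does not separate cells, and fewer microglia and less RNA per microglial cell cannot be told apart in these arrays.

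In maternal relative to virgin LS, 3 of the 32 genes differed at the study's threshold (limma with Benjamini-Hochberg adjustment over all targets, adjusted p under 0.25), beside 1.65% of all targets. P2ry12 and Aif1 were lower (0.813% of all targets were called lower) and Mertk was higher (0.832% were called higher). Between maternal and pups removed LS 0 of 32 passed, beside 0.0309% of all targets. Log2 differences there were -0.16 for P2ry12 and 0.32 for Mertk, close to those against virgins (-0.18 and 0.30). At this threshold the study lists both genes as differing from pups removed as well as from virgin mice. Its own fit called more targets against virgin mice than the 585 called here. Why the fits differ was not tested. Between pups removed and virgin LS 0 of 32 passed, beside 0.208% of all targets. Each group enters 2 of the 3 comparisons, which are therefore not independent of each other.

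At an unadjusted limma p under 0.05, 3 genes were higher and 3 lower in maternal than in virgin mice, beside 5.8% and 4.62% of all targets. Likewise 2 were higher and 4 lower in maternal than in pups removed mice, beside 3.33% and 5.63%, and 1 higher and 1 lower in pups removed than in virgin mice, beside 6.15% and 1.99%. The values of both groups did not overlap for 1 gene in maternal and virgin mice (0.835% of all targets), 1 in maternal and pups removed mice (0.529%) and 0 in pups removed and virgin mice (0.38%). Of the 19938 genes with a target of their own, 756 were higher and 1191 lower in maternal than in virgin mice at an unadjusted limma p under 0.05. The 32 log2 differences had a median of -0.02 against virgin mice and -0.05 against pups removed mice, beside 0.01 and -0.003 over all targets. Over the 19938 genes the medians were 0.00 and -0.005 in these comparisons. The median size of a difference was 0.06 and 0.08 in these comparisons and 0.04 between pups removed and virgin mice, beside 0.05 in each comparison over all targets.

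**Figure D1:**
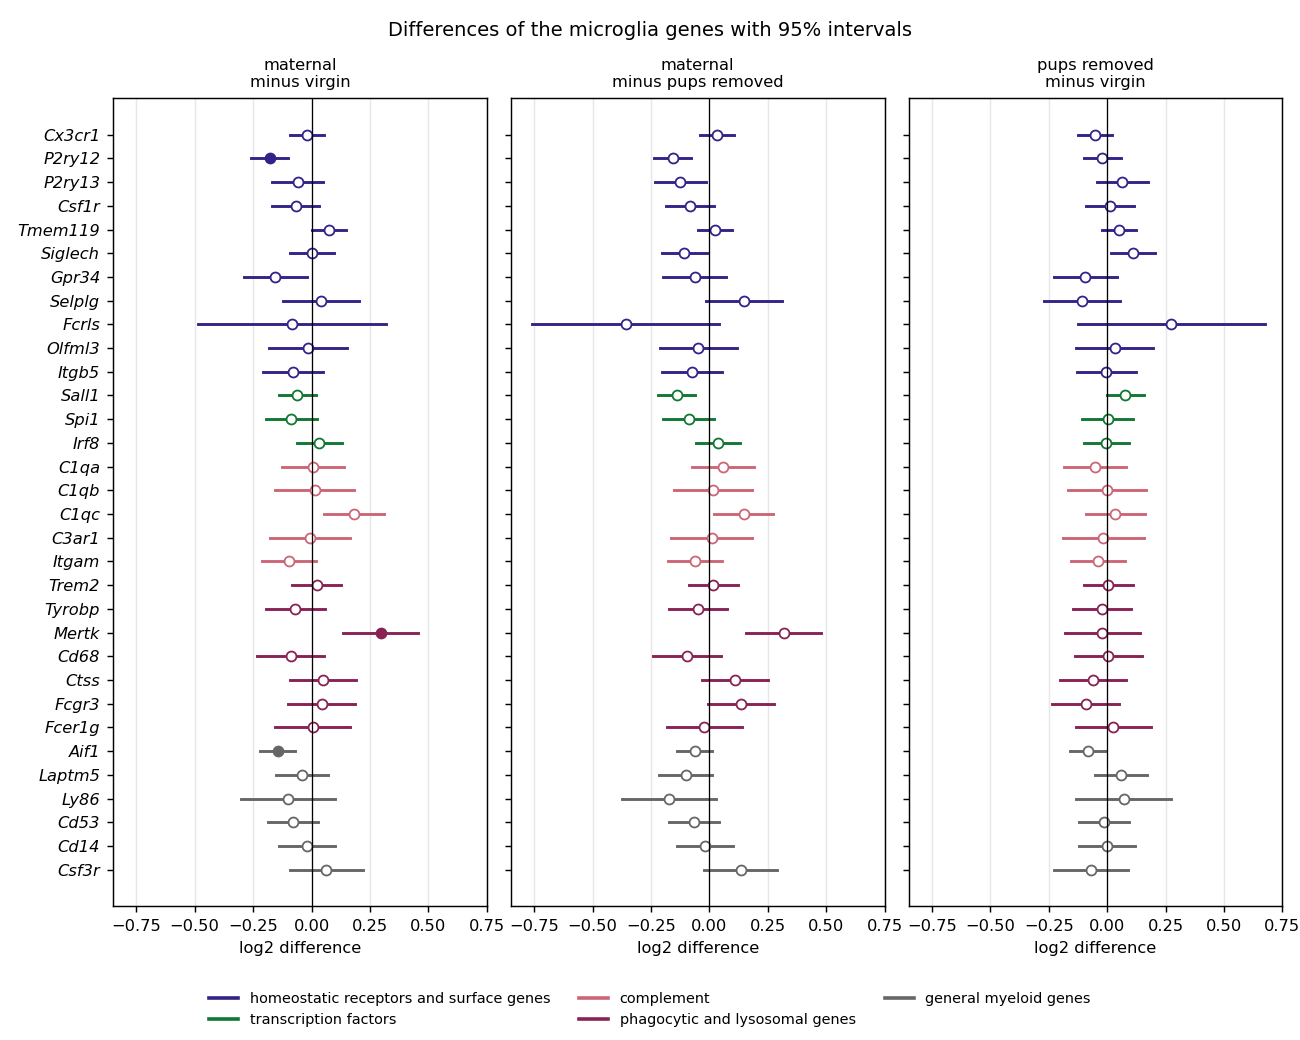
The log2 difference of each of 32 genes (points) with its 95% interval from limma (lines) in the 3 comparisons, colored by class, with filled points for the genes past the threshold. P2ry12, Aif1 and Mertk are the filled points, all in maternal relative to virgin LS, and most other intervals cross 0.

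The sequences around the start of the 4 genes with the smallest p between maternal and virgin LS are shown because they differ in direction, with P2ry12 and Aif1 lower and Mertk and C1qc higher in mean. Each runs from 250 bases before to 50 after the RefSeq transcript start on GRCm38.p6, written 5′ to 3′ on the strand of the gene. Capitals mark GAGGAA, a core of sites bound by the myeloid factor PU.1 (the protein of Spi1), or its reverse complement TTCCTC. The window of P2ry12 is chr3:59262936-59263235 on the minus strand, that of Aif1 chr17:35176003-35176302 on the minus strand, that of Mertk chr2:128698665-128698964 on the plus strand, and that of C1qc chr4:136892865-136893164 on the minus strand.
P2ry12: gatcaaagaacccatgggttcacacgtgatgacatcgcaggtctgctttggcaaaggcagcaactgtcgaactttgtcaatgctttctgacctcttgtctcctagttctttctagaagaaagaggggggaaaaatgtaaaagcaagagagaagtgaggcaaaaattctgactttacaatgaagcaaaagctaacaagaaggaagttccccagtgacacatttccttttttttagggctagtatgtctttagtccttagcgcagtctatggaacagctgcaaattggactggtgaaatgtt
Aif1: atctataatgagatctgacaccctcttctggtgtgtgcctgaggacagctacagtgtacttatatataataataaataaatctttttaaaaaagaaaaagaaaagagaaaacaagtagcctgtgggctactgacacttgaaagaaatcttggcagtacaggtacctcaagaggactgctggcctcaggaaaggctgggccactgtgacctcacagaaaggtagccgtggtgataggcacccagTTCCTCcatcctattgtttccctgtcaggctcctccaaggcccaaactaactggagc
Mertk: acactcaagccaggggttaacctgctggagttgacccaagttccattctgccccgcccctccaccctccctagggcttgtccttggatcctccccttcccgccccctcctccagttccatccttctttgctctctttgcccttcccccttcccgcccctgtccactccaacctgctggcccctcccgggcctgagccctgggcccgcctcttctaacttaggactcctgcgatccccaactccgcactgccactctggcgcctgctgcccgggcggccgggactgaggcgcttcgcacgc
C1qc: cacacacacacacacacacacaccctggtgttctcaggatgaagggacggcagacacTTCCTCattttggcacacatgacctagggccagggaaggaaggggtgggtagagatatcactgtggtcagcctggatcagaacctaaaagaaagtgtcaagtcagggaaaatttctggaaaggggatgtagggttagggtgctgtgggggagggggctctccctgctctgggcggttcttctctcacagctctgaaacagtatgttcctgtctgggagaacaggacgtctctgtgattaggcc

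The windows of Aif1 and C1qc each held 1 match, and those of P2ry12 and Mertk held none. Of the 32 genes, 24 had a window in the table, and 14 of them (58.3%) held the motif on either strand, beside 31.3% of all 27025 genes of the table. A match in these letters is a description of the sequence and not a bound site. Itgam had 3 matches, and Ctss, Cd53 and Cd68 had 2 each.

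Among the homeostatic receptors and surface genes, P2ry12 had log2 signals with a lowest, median and highest value of 7.90, 8.01 and 8.10 in virgins, 7.78, 7.82 and 7.90 in maternal mice and 7.95, 7.98 and 8.03 in pups removed mice. All maternal values were at or under the lowest virgin value, and all were under the lowest pups removed value. P2ry12 fell by 11.6% in maternal relative to virgin LS (log2 difference -0.18, SE 0.04, limma adjusted p = 0.114, lower in 6 of 6 maternal mice than the virgin mean). Against pups removed LS the difference was -0.16 (SE 0.04), which did not pass the threshold (limma adjusted p = 0.278), while the values did not overlap. Between pups removed and virgin LS it was -0.02, with a 95% interval of -0.10 to 0.06. The call against virgin mice was lost only without maternal replicate 5 (limma adjusted p = 0.251, log2 difference -0.19). Against pups removed mice it passed in 5 of 27 alternative settings, among them without maternal replicate 1 (limma adjusted p = 0.221) and without pups removed replicate 4 (0.200).

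**Figure D2:**
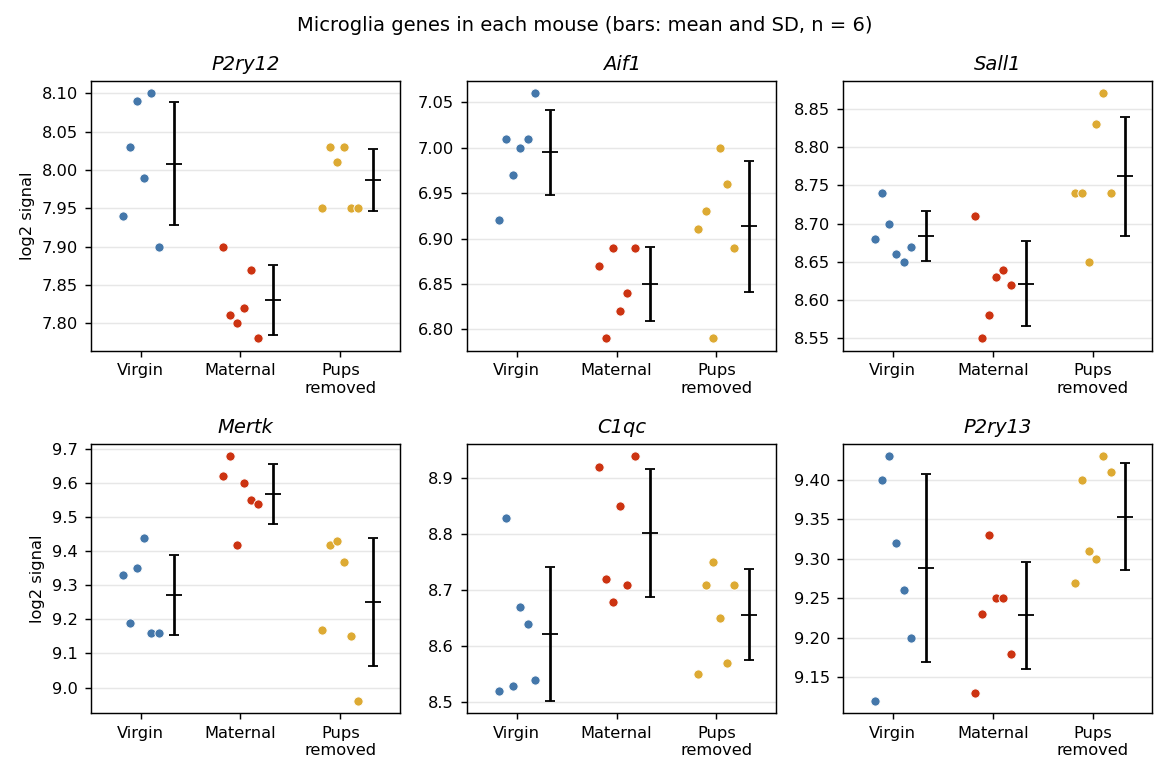
The log2 signal of P2ry12, Aif1, Sall1, Mertk, C1qc and P2ry13 in each mouse (points) of the virgin, maternal and pups removed groups, with the mean and SD of 6 mice beside them. The maternal mice hold the low end for P2ry12, between 7.78 and 7.90, and the high end for Mertk, between 9.42 and 9.68, while pups removed mice overlap virgins for both.

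P2ry13, the other ADP receptor of microglia, ran from 9.12 to 9.43 with a median of 9.29 in virgins, from 9.13 to 9.33 with a median of 9.24 in maternal mice and from 9.27 to 9.43 with a median of 9.36 in pups removed mice. The 3 groups overlapped. Its difference was -0.06 (SE 0.05) against virgin and -0.12 (SE 0.05) against pups removed LS (limma adjusted p = 0.728 and 0.506). On chromosome 3 of GRCm38 no other protein-coding gene lies between P2ry12 and P2ry13, and both lie inside the span of Med12l, together with the UDP-glucose receptor gene P2ry14 and the receptor gene Gpr171. None of those neighbors passed in maternal relative to virgin LS, where the log2 difference was 0.01 for Med12l, 0.08 for P2ry14 and 0.03 for Gpr171 (SE 0.04, 0.05 and 0.08).

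The other homeostatic genes did not pass in any comparison. Cx3cr1, the receptor of the neuronal chemokine fractalkine, had medians of 9.14 in virgins, 9.14 in maternal mice and 9.10 in pups removed mice, with 95% intervals of the difference of -0.09 to 0.05 against virgin and -0.04 to 0.10 against pups removed LS. Csf1r, the receptor of CSF1 and IL-34 on which survival of microglia depends, differed by -0.07 and -0.08 (SE 0.05). The values of these 2 genes overlapped among all groups.

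Tmem119, a membrane protein used to tell microglia from other macrophages, had log2 signals of 8.43 to 8.60 with a median of 8.51 in virgins, 8.51 to 8.64 with a median of 8.59 in maternal mice and 8.53 to 8.64 with a median of 8.54 in pups removed mice. The groups overlapped, and all 6 maternal mice lay above the virgin mean. Its difference was 0.07 (SE 0.03, limma adjusted p = 0.465) against virgin mice and 0.02 against pups removed mice.

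Siglech, a sialic acid binding lectin of microglia, ran from 7.71 to 7.97 with a median of 7.83 in virgins, from 7.75 to 7.92 with a median of 7.82 in maternal mice and from 7.82 to 7.97 with a median of 7.96 in pups removed mice. The highest values of virgin and pups removed mice were equal. The difference was 0.11 (SE 0.04, limma adjusted p = 0.549) between pups removed and virgin mice and -0.11 (SE 0.04, limma adjusted p = 0.516) between maternal and pups removed mice. Gpr34, a lysophosphatidylserine receptor, ran from 6.18 to 6.63 with a median of 6.42 in virgins, from 6.14 to 6.35 with a median of 6.28 in maternal mice and from 6.20 to 6.41 with a median of 6.34 in pups removed mice. The maternal values overlapped the lower part of the virgin range. Gpr34 differed by -0.16 (SE 0.06, limma adjusted p = 0.410) against virgin mice and passed in 1 alternative setting, without virgin replicate 1 (limma adjusted p = 0.208).

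The remaining 4 genes of this class were Selplg, the ligand of P-selectin, Fcrls, an Fc receptor-like surface protein, the secreted glycoprotein Olfml3 and the integrin subunit Itgb5. Their differences ran from -0.36 to 0.15 against pups removed mice, and both ends had wide errors, at -0.36 for Fcrls (SE 0.19) and 0.15 for Selplg (SE 0.08). Against virgin mice these were -0.08 and 0.04. Olfml3 differed from virgin and pups removed mice by -0.01 and -0.05 (SE 0.08), and Itgb5 by -0.08 and -0.07 (SE 0.06). Over the whole class of 11, 8 were lower and 3 higher in mean in maternal than in virgin mice, with a median of -0.06 and 1 past the threshold. Against pups removed mice 8 were again lower and 3 higher, with a median of -0.07 and 0 past the threshold, and between pups removed and virgin mice 6 were higher and 5 lower with a median of 0.01. The mean level of the 11 genes was 8.49 ± 0.05 in virgins, 8.44 ± 0.04 in maternal mice and 8.52 ± 0.04 in pups removed mice (SD, n = 6), and the 3 ranges overlapped.

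**Figure D3:**
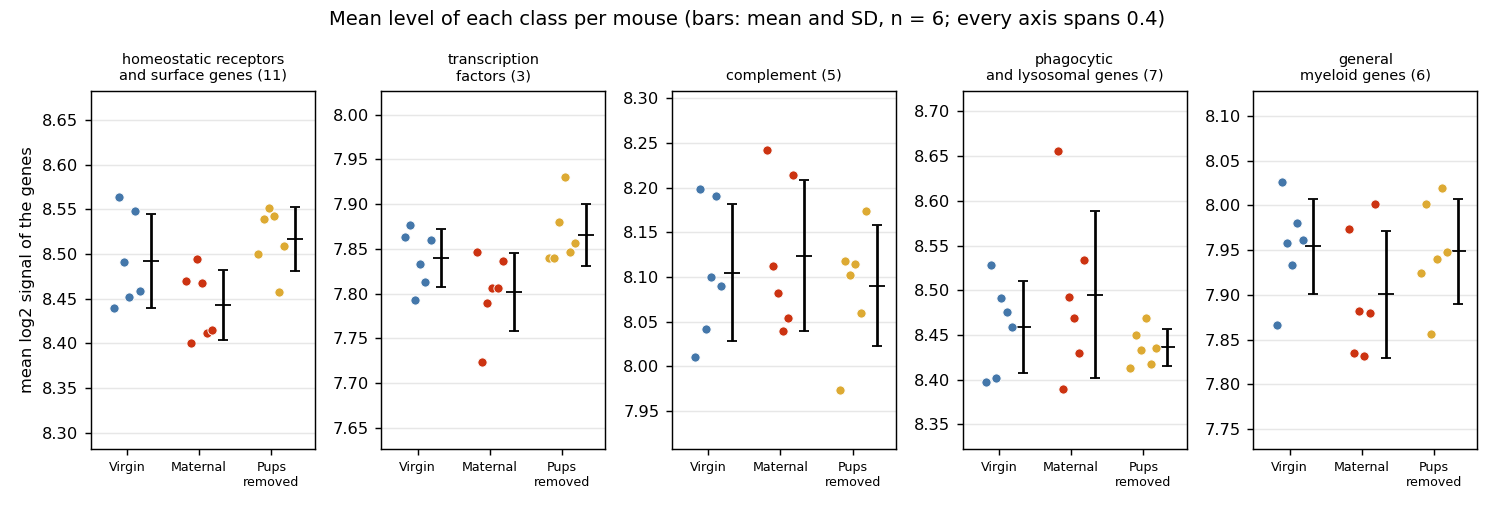
The mean log2 signal of the genes of each class in each mouse (points), with the mean and SD of 6 mice per group. The vertical axes differ in position and all span 0.4, and the groups overlap in every class. Maternal means are lower for the homeostatic class (8.44, against 8.49 in virgin and 8.52 in pups removed mice). The same holds for the transcription factors (7.80, against 7.84 and 7.87) and the general myeloid genes (7.90, against 7.95 and 7.95). Maternal means are higher for the complement and phagocytic classes, and the highest maternal point of the phagocytic class, at 8.66, is replicate 1.

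Of the transcription factors, Sall1, which maintains microglial identity, had log2 signals of 8.65 to 8.74 with a median of 8.68 in virgins, 8.55 to 8.71 with a median of 8.62 in maternal mice and 8.65 to 8.87 with a median of 8.74 in pups removed mice. Maternal and pups removed mice overlapped by 1 maternal mouse at 8.71. The difference was -0.14 (SE 0.04, limma adjusted p = 0.310) against pups removed LS and -0.06 (SE 0.04) against virgin LS. It passed against pups removed mice in 4 of 27 alternative settings, among them without maternal replicate 1 (limma adjusted p = 0.221) and without pups removed replicate 4 (0.247). Spi1, the gene of PU.1 and a master regulator of myeloid cells, differed by -0.09 (SE 0.05) in both maternal comparisons. Irf8, its partner in microglial development, differed by 0.03 and 0.04 (SE 0.05).

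Of the complement genes, C1qa, C1qb and C1qc encode the 3 chains of C1q, which tags synapses and debris and is made in the brain chiefly by microglia. C1qc had log2 signals of 8.52 to 8.83 with a median of 8.59 in virgins, 8.68 to 8.94 with a median of 8.79 in maternal mice and 8.55 to 8.75 with a median of 8.68 in pups removed mice. All 6 maternal mice lay above the virgin mean, with overlap in the middle of the range. The difference was 0.18 (SE 0.06, limma adjusted p = 0.296) against virgin and 0.15 (SE 0.06, limma adjusted p = 0.506) against pups removed mice. It passed against virgin mice in 1 of 27 alternative settings, with dim targets left out (limma adjusted p = 0.209).

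The other chains lie beside C1qc on chromosome 4, with no protein-coding gene in between. C1qa differed by 0.00 (SE 0.06) and C1qb by 0.01 (SE 0.08) between maternal and virgin mice, and by 0.06 and 0.02 between maternal and pups removed mice. Whether C1qc moved apart from the other chains was not tested. C3ar1, the receptor of the complement fragment C3a, and Itgam, the CD11b subunit of complement receptor 3, differed from virgin mice by -0.01 (SE 0.08) and -0.10 (SE 0.05). Over the 5 measured complement genes, 3 were higher and 2 lower in maternal than in virgin mice with a median of 0.00, and 4 higher and 1 lower than in pups removed mice with a median of 0.01, with 0 past the threshold in either. The mean of the 5 genes was 0.02 higher in maternal than in virgin mice and -0.005 without maternal replicate 1.

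Of the phagocytic and lysosomal genes, Mertk had log2 signals of 9.16 to 9.44 with a median of 9.26 in virgins, 9.42 to 9.68 with a median of 9.57 in maternal mice and 8.96 to 9.43 with a median of 9.27 in pups removed mice. This receptor kinase binds dying cells through Gas6 and Pros1 and is made by astrocytes as well as by microglia. Maternal and virgin values, like maternal and pups removed values, overlapped only between 9.42 and 9.44. Mertk rose by 22.8% in maternal relative to virgin LS (log2 difference 0.30, SE 0.08, limma adjusted p = 0.185, higher in 6 of 6 maternal mice than the virgin mean). Against pups removed mice the difference was 0.32 (SE 0.08) and did not pass (limma adjusted p = 0.278), and between pups removed and virgin mice it was -0.02, with a 95% interval of -0.18 to 0.14. The call against virgin mice was lost without virgin replicate 2 or 5 (limma adjusted p = 0.365 and 0.255) and without maternal replicate 2, 4, 5 or 6 (0.312, 0.314, 0.329 and 0.30). Against pups removed mice Mertk passed in 5 of 27 alternative settings, among them without pups removed replicate 4 (limma adjusted p = 0.181).

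Astrocyte genes were set beside Mertk. Of 12 astrocyte markers 0 passed in any comparison, with 5 higher and 7 lower in maternal than in virgin mice (median -0.05) and 6 higher and 6 lower than in pups removed mice (median -0.02). Their mean log2 signal ran from 10.06 to 10.27 in virgins, from 10.10 to 10.23 in maternal mice and from 10.14 to 10.21 in pups removed mice, which is full overlap. The astrocyte marker with the smallest p, the connexin gene Gjb6, differed by 0.23 (SE 0.08, limma adjusted p = 0.312) against virgin and 0.28 (SE 0.08, limma adjusted p = 0.338) against pups removed mice. Fgfr3, a growth factor receptor gene, differed by 0.07 and 0.11 (SE 0.04), and the water channel gene Aqp4 by -0.06 and -0.16 (SE 0.07). The part of astrocytes in the Mertk difference was not tested.

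Trem2, the lipid-sensing receptor of microglial phagocytosis, differed by 0.02 (SE 0.05) in both maternal comparisons. Tyrobp, the adaptor through which Trem2 signals, differed by -0.07 and -0.05 (SE 0.06), and Fcer1g, an adaptor of Fc receptors, by 0.00 and -0.02 (SE 0.08). The protease gene Ctss, the IgG receptor gene Fcgr3 and the lysosomal glycoprotein gene Cd68 differed from pups removed mice by 0.11, 0.13 and -0.09 (SE 0.07 each). Over the 7 genes, 5 were higher and 2 lower in maternal than in virgin mice with a median of 0.02, and Mertk alone passed. The mean level of the class was 8.46 ± 0.05 in virgins, 8.50 ± 0.09 in maternal mice and 8.44 ± 0.02 in pups removed mice (SD, n = 6), and the highest maternal mouse, replicate 1, stood at 8.66. The excess over virgin mice was 0.04 in all, 0.004 without maternal replicate 1, and -0.01 for the 6 genes without Mertk. Without both Mertk and that mouse the difference was -0.04, beside -0.05 for the homeostatic class without that mouse. These checks were chosen after the values were seen.

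Of the general myeloid genes, Aif1, the actin-bundling protein Iba1 by which microglia are stained, had log2 signals of 6.92 to 7.06 with a median of 7.0 in virgins, 6.79 to 6.89 with a median of 6.86 in maternal mice and 6.79 to 7.0 with a median of 6.92 in pups removed mice. Maternal and virgin values did not overlap. Pups removed mice covered the maternal range and part of the virgin range. Aif1 fell by 9.56% against virgin mice (log2 difference -0.14, SE 0.04, limma adjusted p = 0.179, lower in 6 of 6 maternal mice than the virgin mean). It differed by -0.06 (SE 0.04, limma adjusted p = 0.637) against pups removed mice, and pups removed mice differed from virgins by -0.08 (SE 0.04, limma adjusted p = 0.586). Aif1 no longer passed without virgin replicate 2 (limma adjusted p = 0.340) and without maternal replicate 2, 4 or 5 (0.296, 0.311 and 0.326). Nor did it pass with the replicate number as a block.

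None of the other general myeloid genes passed. Ly86, also called MD-1, had medians of 9.39, 9.30 and 9.46 in virgin, maternal and pups removed mice and differed by -0.10 and -0.17 (SE 0.10) in the maternal comparisons. Laptm5, a lysosomal membrane protein of blood-derived cells, the tetraspanin gene Cd53 and the lipopolysaccharide co-receptor gene Cd14 differed from virgin mice by -0.04, -0.08 and -0.02. Csf3r, the receptor of granulocyte colony-stimulating factor, differed by 0.06 against virgin and 0.13 (SE 0.07) against pups removed mice. Of the 6 genes 5 were lower in mean in maternal mice in each maternal comparison.

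The differences of genes of 1 cell type were set against each other in 5 pairs and 3 comparisons, on the log2 difference between both genes in each mouse, by exact two-sided permutation (924 ways to split 12 mice) with adjustment over the 15 tests. P2ry12 moved apart from Cx3cr1 in maternal relative to virgin LS by -0.16 (SD 0.04 in maternal and 0.06 in virgin mice, exact permutation adjusted p = 0.00812) and relative to pups removed LS by -0.19 (adjusted p = 0.00812). It moved apart from Tmem119 by -0.25 and -0.18 (exact permutation adjusted p = 0.00812 and 0.013). These 4 differences also passed when any 1 mouse was left out. The smallest unadjusted p that the test can give is 0.00216. Every pair holds P2ry12 or Mertk, which were chosen with their differences on these arrays known. The adjustment does not cover that choice, so the p-values are not independent of the calls above.

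From its neighbor P2ry13, P2ry12 was not told apart (-0.12 against virgin and -0.03 against pups removed mice, exact permutation adjusted p = 0.118 and 0.617), nor from Csf1r (-0.11 and -0.08, exact permutation adjusted p = 0.0696 and 0.18). Against virgin mice the P2ry13 pair passed without maternal replicate 1 (exact permutation adjusted p = 0.0162), and the Csf1r pair without maternal replicate 2 and with quantile normalization (0.0216 in each). Mertk moved apart from Trem2 by 0.30 relative to pups removed LS (exact permutation adjusted p = 0.00812), which also passed when any 1 mouse was left out. Relative to virgin LS it did so by 0.28 (exact permutation adjusted p = 0.0433), and this passed in only 2 of 12 fits that left out 1 mouse, those without virgin replicates 1 and 4, with adjusted p up to 0.0866. Between pups removed and virgin mice 0 of 5 pairs passed (exact permutation adjusted p from 0.195 to 0.831).

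**Figure D4:**
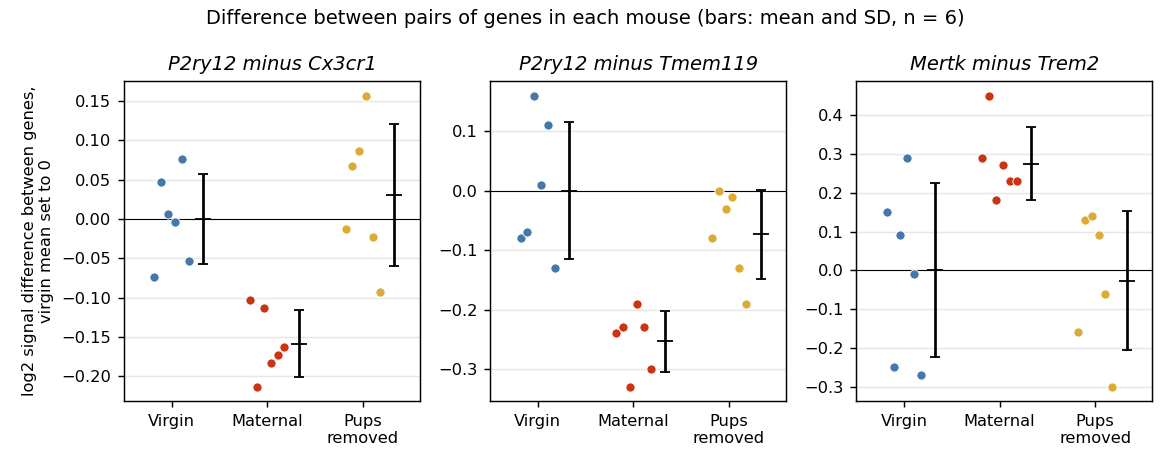
The difference in log2 signal between both genes of a pair in each mouse (points), with the mean of the virgin mice set to 0, and the mean and SD of 6 mice per group. All 6 maternal mice lie lower than every virgin and pups removed mouse for P2ry12 minus Cx3cr1, and for Mertk minus Trem2 maternal mice lie higher than every pups removed mouse but overlap with virgins.

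The genes were also compared for shared variation between mice of the same group, in 10 pairs after the group means were taken out. P2ry12 and Csf1r had a Pearson r of 0.61 and a Spearman rho of 0.62 over 18 mice (permutation p = 0.011 and 0.0095, adjusted over 10 pairs 0.11 and 0.095), and r was 0.61 without the 2 mice farthest from the median. C1qb and C1qc had an r of 0.59 and a rho of 0.57 (permutation p = 0.0273 and 0.0332, adjusted 0.136 and 0.111), and r was 0.58 without the 2 farthest mice. Tyrobp and Fcer1g had an r of 0.52 and a rho of 0.55 (permutation p = 0.0419 and 0.0306, adjusted 0.14 and 0.111), with 0.42 without the 2 farthest. None of the 10 pairs passed the adjusted threshold of 0.05, and Tyrobp with Trem2 had an r of -0.11 and P2ry12 with Aif1 of -0.05. All values of a mouse share 1 array.

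Spread between mice of the same group set how small a difference could be told. The pooled SD of the 32 genes had a median of 0.106 on the log2 scale, beside 0.0927 over all genes with a target of their own. It was smallest for Cx3cr1 (0.0504), Tmem119 (0.0507), Aif1 (0.0547) and Sall1 (0.0581). It was largest for Fcrls (0.355), higher than in 99.6% of genes, whose signals ran from 6.64 to 7.88 and were wide in every group. The 95% interval of a maternal difference reached 0.07 to either side for Cx3cr1 and 0.40 for Fcrls, so the absence of a call for Fcrls says little.

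**Figure D5:**
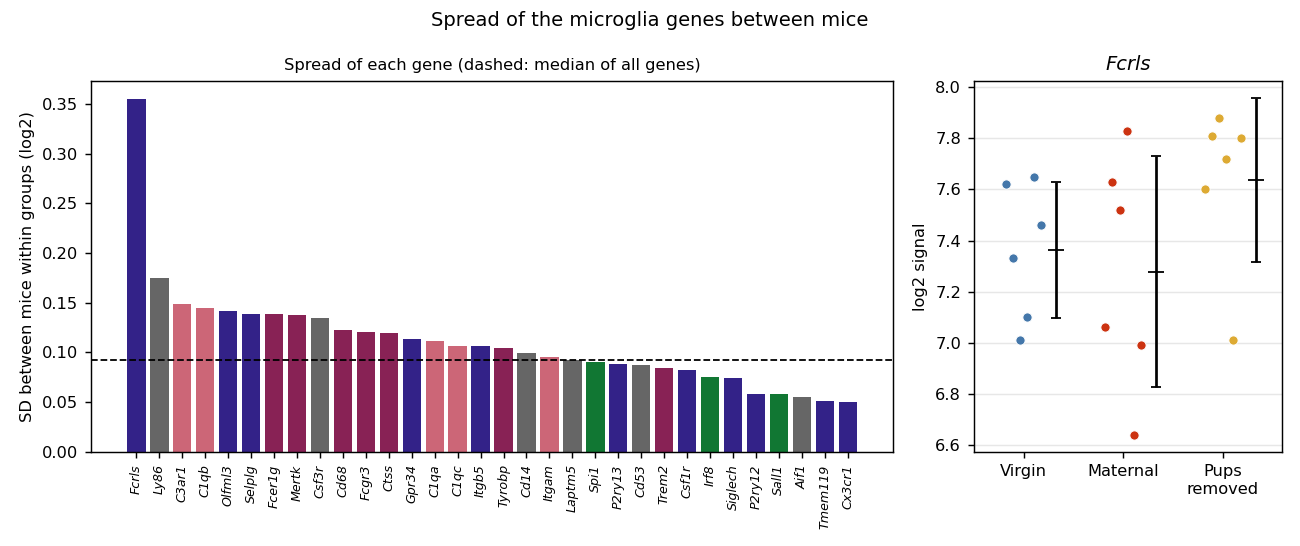
The pooled SD between mice within groups for each of 32 genes (bars, log2 scale, colored by class as in the plot of differences), with the median of all genes as a dashed line at 0.0927, and the log2 signal of Fcrls in each mouse with the mean and SD of 6 mice per group. Fcrls stands apart at 0.355.

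Ligands and partners of these genes were taken from a separate list of 30, of which 27 were measured. In maternal relative to virgin LS 7 were higher and 20 lower with a median of -0.06. At an unadjusted limma p under 0.05, 0 were higher and 6 lower, beside 5.8% and 4.62% of all targets. At the study's threshold 1 passed, beside 1.65% of all targets. This was Cd180, a Toll-like receptor relative that pairs with Ly86, which had a log2 difference of -0.22 (SE 0.06, limma adjusted p = 0.198) and no overlap of the groups. Against pups removed mice Cd180 differed by -0.22 (SE 0.06, limma adjusted p = 0.310), while the study lists it as passing there too. Axl, a relative of Mertk, differed from virgin mice by -0.14 (SE 0.04, limma adjusted p = 0.265), and the lipoprotein gene Apoe by -0.11 (SE 0.03, limma adjusted p = 0.282). The study's results on these samples were known when Cd180 was put on the list.

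Of 30 further measured microglial genes 0 passed in any comparison, and in maternal relative to virgin LS 12 were higher and 17 lower with a median of -0.02. The lowest p were those of Bin1 (0.15, SE 0.05, limma adjusted p = 0.265), Abi3 (0.14, SE 0.05) and Crybb1 (0.11, SE 0.04). Bin1 did not pass here, while the study lists it among its most significant differences between maternal and virgin mice. At an unadjusted p under 0.05, 4 of the 30 passed in that comparison, beside 10.4% of all targets. Of 24 genes raised in activated or disease-associated microglia, 10 were higher and 14 lower, and 1 passed, beside 1.65% of all targets. This was Lpl, lipoprotein lipase, which neurons make too and which fell by 0.58 (SE 0.14, limma adjusted p = 0.165). At an unadjusted limma p under 0.05, 0 of the 24 were higher and 4 lower in maternal than in virgin mice. Over all targets the shares were 5.8% and 4.62%. Axl and Apoe, given above with the ligands and partners, are on this list too. Of 16 other complement genes 0 passed, with C4b at -0.20 (SE 0.08, limma adjusted p = 0.388) against virgin mice. C4b differed by -0.20 from pups removed mice too, where the complement inhibitor genes Cd59a and Cd55 differed by -0.38 and -0.31 (SE 0.13 and 0.12, limma adjusted p = 0.40 and 0.492). Between pups removed and virgin mice Cd59a differed by 0.36 (limma adjusted p = 0.432) and Cd55 by 0.25 (limma adjusted p = 0.639).

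Lists of other cells were read in the same way, beside 1.65% of all targets called in maternal relative to virgin LS. Of 10 perivascular and meningeal macrophage markers 1 passed in maternal relative to virgin LS, the scavenger receptor gene Cd36 (0.26, SE 0.07, limma adjusted p = 0.176), which endothelial cells also express, and the mean of the list ran from 6.13 to 6.24 in virgins, 6.20 to 6.32 in maternal mice and 6.13 to 6.30 in pups removed mice. Of 11 monocyte and neutrophil markers 1 passed, the neutrophil granule gene Ngp (0.25, SE 0.07, limma adjusted p = 0.214), with list means of 5.70 to 5.92, 5.75 to 5.98 and 5.76 to 5.93. Of 11 lymphocyte, 9 oligodendrocyte and 10 meningeal and mural cell markers 0 passed, and of 10 endothelial markers 1 passed, the receptor gene Flt1 (0.15, SE 0.04, limma adjusted p = 0.190). In pups removed relative to virgin LS 9 of the 10 endothelial markers were higher and 0 lower in mean (median 0.09), and 0 passed. Alas2, a heme synthesis gene and the only measured marker of red blood cells, differed by 0.36 (SE 0.07, limma adjusted p = 0.275) between maternal and pups removed mice and by -0.23 (SE 0.07, limma adjusted p = 0.387) between pups removed and virgin mice. Of 11 striatal neuron markers 11 were lower in maternal than in virgin mice and 3 passed. All 11 had an unadjusted limma p under 0.05 there, beside 4.62% of all targets that were lower at that level. The groups did not overlap for 4 of the 11, beside 0.835% of all targets. List means were 10.23 to 10.49 in virgins, 9.41 to 10.10 in maternal mice and 9.64 to 10.65 in pups removed mice. Of 10 choroid plexus and ependyma markers 10 were lower and 0 passed. Their part in the differences of the microglia genes was not tested. The 18 arrays had medians of 7.61 to 7.70, no 2 arrays held identical values, and arrays have no read depth, so their number limits the precision.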

How the data were processed

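Total RNA of microdissected LS was measured on 18 arrays, 6 per group. Per the labels and the study's methods, the authors summarized probes to targets with PLIER and a background correction by GC bin in Affymetrix Power Tools 1.12.0, and deposited log2 signal, here used as it is. The methods place normalization in this same step, and how arrays were normalized to each other is not given in the sources used here. RNA was extracted in matched triplets, and which arrays form a triplet is not given. Of 35557 targets, 21789 name exactly 1 gene in the platform annotation, and a gene was read from its brightest target that names it alone (each measured microglia gene had 1). The threshold, an adjusted p under 0.25, is that of the study.

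A linear model with 3 group means was fitted to all targets and arrays with limma 3.58.1 in R 4.3.3 (lmFit and eBayes, prior degrees of freedom 2.62), with Benjamini-Hochberg adjustment over all 35557 targets. The fit was tested on simulated data. SE stands for the standard error of a limma difference, and a fold of the deposited log2 values is stated as a percent. All samples are biological replicates by the series' design. Pairs of genes were compared by exact permutation tests, and shared variation by 100000 permutations within groups. Replicate numbers were not treated as pairs. Class means without maternal replicate 1 or without Mertk were added after the data were seen.

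Values are given for all microglia genes, in full per group for those with an unadjusted p under 0.05 in any comparison, for the called genes of other lists and up to 3 more with the smallest p, and for neighbors of P2ry12. The microglia genes, the other lists, the pairs and this rule were chosen with earlier results of these data known. Promoter windows are from RefSeq on GRCm38.p6. The settings tried as alternatives were a block for the replicate number, quantile normalization, centring, a filter on dim targets (mean under 7), a trended and robust prior, only the 2 groups compared, array weights, adjustment over targets of 1 gene, the mean of all targets of a gene, and leaving out each array.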

Additional observations from a re-analysis of the deposited data

Results flagged for a closer look

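In 5 of 96 groups of 6 mice (32 genes in 3 groups) the highest or lowest mouse stood farther from its nearest neighbor than Dixon's 95% limit allows, and chance gives about 5%. Siglech in pups removed replicate 5 was 7.82, with the nearest at 7.93 (gap over range 0.733). Fcrls in the same mouse was 7.01, with the nearest at 7.60 (0.678). Itgam in pups removed replicate 2 was 7.76, with the nearest at 7.49 (0.711). In virgin mice Fcgr3 was 7.19 in replicate 4, with the nearest at 7.12 (0.636), and Cd53 was 8.22 in replicate 3, with the nearest at 8.07 (0.714).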

How the results depend on the processing

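The number of microglia genes called in maternal relative to virgin LS was 3 and ran from 0 to 4 when 1 array was left out. It was 0 without maternal replicate 5, and 1 (P2ry12) without virgin replicate 2, maternal replicate 2 or maternal replicate 4. With the replicate number as a block it was 2, and Aif1 was lost (limma adjusted p = 0.256). Against pups removed mice it was 0, and 1 with quantile normalization (Mertk), 3 with dim targets left out and 3 with array weights (Mertk, P2ry12 and Sall1 in both), 2 with adjustment over targets of 1 gene (Mertk and P2ry12), 0 with the replicate block, and 0 to 3 when 1 array was left out (2 without maternal replicate 1 and 3 without pups removed replicate 4). Between pups removed and virgin mice it was 0 in every setting run. The cause was not tested. Fewer targets enter the adjustment where dim targets or those of several genes are left out. Leaving out dim targets also changed the SE, for Cx3cr1 against virgin mice from 0.0343 to 0.0334. These changes were not separated. Of 861 single-gene values per comparison, 847 kept their call for maternal mice against virgins and 847 for maternal against pups removed mice. All 861 did so for pups removed mice against virgins, and 0 calls reversed. Direction was not kept by every small difference. That of Trem2 against virgin mice was 0.02 in the main fit and -0.003 without virgin replicate 4. Aif1, Gpr34 and Cd14 have a mean under 7 and no value with dim targets left out, and the mean of all targets of a gene equals its only target.

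Of the 15 tests of pairs 6 passed, 5 to 6 when 1 mouse was left out, and 0 with the replicate number as a block, where sign flips of 6 differences cannot give a p under 0.0312 and the lowest adjusted p was 0.0781. With quantile normalization 7 passed. Of 10 pairs 0 shared variation past the threshold by r or rho. With the block 2 did by r (C1qb with C1qc, and P2ry12 with Csf1r) and by rho also Tyrobp with Fcer1g (adjusted p = 0.0141, against 0.0797 by r). Same-numbered arrays did not deviate together (18 correlations, -0.248 to 0.0953), and 1 of 18 arrays correlated best with its own number.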
